A study of Arabidopsis thaliana with 12 samples.

Results

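Transcript signals of 5 regulators of vascular cell identity were followed over 10 days in Arabidopsis thaliana cells, accession Col-0, that were induced in culture to form tracheary elements. Tracheary elements are the water-conducting cells of xylem. The genes were PHV (PHAVOLUTA, AT1G30490), LHW (LONESOME HIGHWAY, AT2G27230), OPS (OCTOPUS, AT3G09070), CLE44 (AT4G13195) and C3H14 (AT1G66810). They were taken by name, where the platform annotation gives a gene a probe set of its own. No threshold on signal was used, but the names were chosen with earlier results of these data known. Each of the 5 had 1 such probe set, and all 5 were bright enough on at least 1 day to be tested, out of 13333 genes that the annotation names and 8183 of those that were tested.

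The 12 arrays (Affymetrix ATH1, on which a gene is read by a set of short probes) held 2 from each of 6 days. For days 2, 4, 6, 8 and 10 the labels describe a transfer of 7.5 ml of 7-day-old culture to 42.5 ml of new medium that held the steroid hormone brassinolide (1 uM) and boric acid (10 mM). Day 0 cells are labelled as untreated. The labels list 2 media for every array: a medium with 1 ug/ml of the synthetic auxin 2,4-D, and the medium with brassinolide and boric acid, each with 3% sucrose. Days 2, 6 and 10 are labelled 27 C and days 0, 4 and 8 are labelled 22 C, so each step between neighbouring days also crosses a change of labelled temperature. The day 0 comparisons all rest on 1 pair of arrays, and the transfer, the hormone and the boric acid separate that day from all others together. Whether the 2 arrays of a day stand for different cultures is not stated. The p-values therefore reflect only the scatter between these arrays, which may be technical.

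Vascular tissue arises from procambial cells, which keep dividing and give rise to xylem on one side and phloem on the other. PHV is a class III homeodomain-leucine zipper (HD-ZIP III) transcription factor. This family, whose transcripts are targets of the microRNAs miR165 and miR166, patterns the vascular cylinder and specifies xylem. LHW is a basic helix-loop-helix factor that pairs with TMO5 and its relatives to drive divisions of vascular precursors and local cytokinin synthesis. OPS is a membrane-associated protein of provascular and protophloem cells that promotes phloem differentiation and binds the brassinosteroid-pathway kinase BIN2. CLE44 encodes a precursor of the peptide TDIF, which acts through the receptor PXY to maintain procambial cells and to hold back their differentiation into xylem vessels. C3H14 is a CCCH zinc finger protein that acts downstream of the secondary wall regulator MYB46.

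The 5 genes took 4 kinds of course. PHV and OPS rose by day 2 and were highest on day 10, and LHW rose by day 2 and was called in no later step but that to day 4. CLE44 fell to its lowest mean on day 4 and partly recovered by day 6, but day 10 was not called above day 4. C3H14 was above a dim level on days 4 and 6 only. The moderated F test of limma over the 5 comparisons with day 0 called all 5 genes, with adjusted p between 9.80e-09 for PHV and 0.00192 for C3H14 (Benjamini-Hochberg over 15103 probe sets). Since 80.8% of those probe sets were called by the same test, being called does not set the 5 genes apart. Their courses are what the following values describe.

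**Figure D1:**
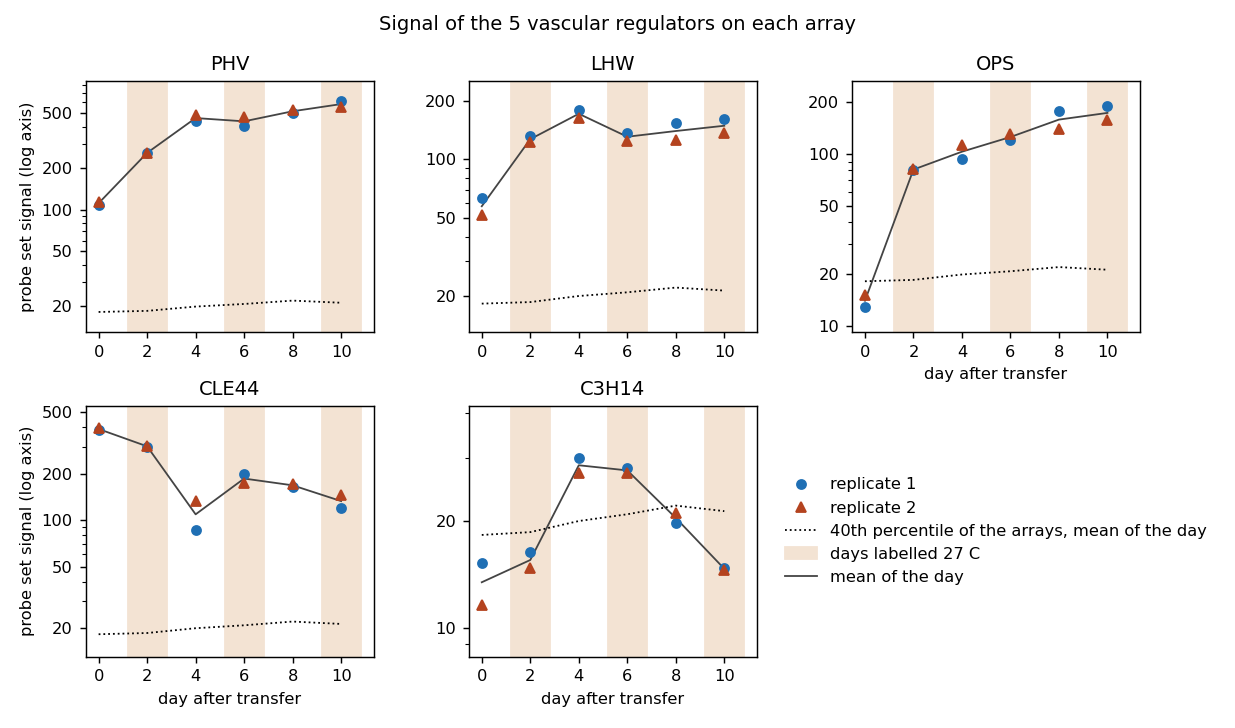
Probe set signal (log axis) against day after transfer for PHV, LHW, OPS, CLE44 and C3H14; circles and triangles are the 2 arrays of a day, the line joins day means, the dotted line is the 40th percentile of the arrays and shaded days are labelled 27 C. PHV and OPS have their highest means on day 10 and LHW on day 4, none of them separated from the next highest day. CLE44 drops to 109 on day 4, and C3H14 stands above the dotted line on days 4 and 6 only.

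In units of the array signal, which runs on a linear scale with the same trimmed mean on every array, PHV read 109 and 114 (day 0), 258 and 259 (day 2), 439 and 485 (day 4), 404 and 471 (day 6), 506 and 528 (day 8), and 612 and 555 (day 10). No array of a later day fell as low as day 0 or, after day 2, as low as day 2, while the arrays of days 4 and 6 overlapped. On day 10 PHV averaged 583 ± 40.3, against 112 ± 3.67 on day 0 (SD, n = 2 arrays each), a log2 change of 2.38 ± 0.09 (SE; limma adjusted p = 2.43e-09). That change was larger than 94.3% of all changes on that day. Of the log2 rise seen by day 10, 50.8% was reached by day 2 and 85.9% by day 4.

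In order of its means, PHV was highest on day 10, followed by days 8, 4, 6, 2 and 0. Day 2 stood above day 0 (log2 1.21 ± 0.09, adjusted p = 5.96e-07) and day 6 above day 2 (0.75 ± 0.09, adjusted p = 3.72e-05). The neighbours in between were not separated: day 10 exceeded day 8 by 0.17 (95% interval -0.03 to 0.37), and day 8 exceeded day 4 by 0.16 (-0.04 to 0.37). Across that plateau a slower rise was still called, of 0.34 ± 0.09 on day 10 against day 4 (adjusted p = 0.0178), where 15.9% of all probe sets were called higher. This last call was lost without replicate 1 of day 4 (0.26) or of day 10 (0.27), and with arrays centred on their medians (0.22). Of all probe sets tested, 0.967% were called higher in each of the 3 comparisons that PHV passed here, namely day 2 against day 0, day 4 against day 2 and day 10 against day 4.

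LHW read 63.1 and 51.9 (day 0), 131 and 122 (day 2), 180 and 162 (day 4), 137 and 124 (day 6), 154 and 126 (day 8), and 162 and 136 (day 10). All arrays after day 0 were higher than both day 0 arrays, and days 2, 6 and 8 overlapped each other. On day 2 LHW averaged 127 ± 6.25, against 57.5 ± 7.94 on day 0 (SD, n = 2 each), a log2 change of 1.15 ± 0.14 (limma adjusted p = 2.53e-05). That step held 72.7% of its largest rise against day 0, the 1.58 ± 0.14 of day 4 (adjusted p = 1.65e-06). Day 10 lay 1.37 ± 0.14 above day 0 and differed from day 2 by 0.22, with a 95% interval of -0.08 to 0.53. A rise called both for day 2 against day 0 and for day 4 against day 2, as in LHW and PHV, was seen in 6.26% of all probe sets.

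The order of the LHW means was days 4, 10, 8, 6, 2 and 0, and of the 5 pairs of neighbours in that order only days 2 and 0 were separated. Day 4 exceeded day 2 by 0.43 ± 0.14 (adjusted p = 0.0255), but this call was lost without either array of day 2 (0.38 and 0.48) or without the replicate 1 array of day 4 (0.36). The difference of day 6 from day 4 was -0.39 ± 0.14 (adjusted p = 0.0830). It passed once arrays were centred on medians (-0.45, adjusted p = 0.0375) and with the replicate number as a block (adjusted p = 0.0176). Replicate 1 read higher than replicate 2 on all 6 days. Day 6 differed from day 2 by 0.04, with a 95% interval of -0.26 to 0.35.

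OPS read 13.0 and 15.2 (day 0), 79.9 and 81.8 (day 2), 92.9 and 112 (day 4), 119 and 130 (day 6), 176 and 139 (day 8), and 188 and 156 (day 10). Both day 0 arrays were dim, which here means below the 40th percentile of the array, a convention for signal over background. Only a lower bound on the fold can then be given, with each day 0 array raised to that percentile. OPS was at least 4.44-fold higher on day 2 than on day 0 (limma adjusted p = 1.11e-07) and at least 9.42-fold higher on day 10 than on day 0 (adjusted p = 4.95e-09). From day 2 on its arrays overlapped only between days 8 and 10.

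Among the days on which OPS was bright, the means ran in calendar order, with day 10 highest and day 2 lowest. No step between neighbouring days after day 2 was called, the largest being 0.34 ± 0.15 for day 4 against day 2 (adjusted p = 0.0984). Over longer spans the rise was called, with day 10 at 172 ± 22.5, against 80.9 ± 1.36 on day 2 (SD, n = 2 each; log2 1.08 ± 0.15, adjusted p = 1.49e-04), a rise called in 26.1% of all probe sets. Day 10 also stood 0.75 ± 0.15 above day 4 (adjusted p = 0.00413). A rise called both for day 2 against day 0 and for day 10 against day 4 was seen in 5.97% of all probe sets.

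CLE44 read 385 and 394 (day 0), 299.9 and 302 (day 2), 85.8 and 132 (day 4), 199 and 173 (day 6), 164 and 173 (day 8), and 121 and 145 (day 10). Every later array was below both day 0 arrays, and every array from day 4 on was below both day 2 arrays. The 2 arrays of day 4 differed more than those of any other day, and they overlapped with day 10. CLE44 averaged 109 ± 32.98 on day 4, against 390 ± 6.54 on day 0 (SD, n = 2 each), a log2 change of -1.87 ± 0.17 (limma adjusted p = 1.89e-06). Only 6.31% of probe sets had a lower change on that day.

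Most of the CLE44 fall came between days 2 and 4. Day 2 differed from day 0 by -0.37 ± 0.17 (adjusted p = 0.0730), whereas day 4 differed from day 2 by -1.497 ± 0.17 (adjusted p = 3.16e-05). The day 2 difference passed in 4 of 21 alternative settings, with arrays centred on their medians, with the arrays of days 0 and 2 alone, and without either replicate of day 4, 1 at a time (adjusted p between 0.00598 and 0.0481). Day 6 then stood 0.80 ± 0.17 above day 4 (adjusted p = 0.00850), a call lost without replicate 1 of day 6 (0.70, adjusted p = 0.0740). Without replicate 1 of day 4, the lowest array, the rise was still called but was 0.49. A called fall from day 2 to 4 followed by a called rise from day 4 to 6 was seen in 1.56% of probe sets. Days 6, 8 and 10 came next in order below day 2, and neither day 8 against day 6 (-0.14, 95% interval -0.51 to 0.22) nor day 10 against day 8 (-0.35, -0.71 to 0.02) was called. On day 10 CLE44 was at 133 ± 17.2, against 390 ± 6.54 on day 0 (log2 -1.56 ± 0.17, adjusted p = 8.34e-06). That day was not separated from day 4 (0.31, 95% interval -0.05 to 0.68).

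C3H14 read 15.2 and 11.6 (day 0), 16.3 and 14.7 (day 2), 30.0 and 27.2 (day 4), 28.0 and 27.3 (day 6), 19.7 and 21.0 (day 8), and 14.7 and 14.6 (day 10). All 8 arrays of days 0, 2, 8 and 10 were dim and all 4 arrays of days 4 and 6 were not. C3H14 was thus bright enough to be tested only through days 4 and 6. Its p-values for those days against dim days are not independent of that choice. Against the dim days only bounds can be given: C3H14 was at least 1.57-fold higher on day 4 than on day 0 (limma adjusted p = 0.00111) and at least 1.52-fold higher on day 6 than on day 0 (adjusted p = 0.00144). It was at least 1.34-fold lower on day 10 than on day 4 (adjusted p = 0.00742; 13.7% of all probe sets were lower), a call lost without replicate 1 of day 4 (adjusted p = 0.0503). Day 10 was also called lower than day 6 (adjusted p = 0.0148; 8.59% of all probe sets were lower), but not when any 1 array of either day was left out.

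The peak of C3H14 was low in absolute terms, at the mean percentile 45.8 of an array on day 4, and no difference was called between days 4 and 6 (log2 -0.05, 95% interval -0.53 to 0.44). Day 8 was called above day 0 (adjusted p = 0.0308) but was dim on either day, and its fold is left out. That call was lost in 8 of 20 alternatives, quantile normalization and centring on medians among them. The rise and fall of C3H14, called higher for day 4 against day 2 and lower for day 10 against day 4, was shared by 5.85% of all probe sets.

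Set against day 0, 3 of the 5 genes were called higher on day 2 (PHV, LHW and OPS), against 35.3% of all probe sets, and none lower, against 26.1%. CLE44 and C3H14 did not pass in that comparison. On days 4, 6 and 8 the calls were 4 higher and 1 lower, where the background was 35.8% higher and 25.8% lower for day 4, 34.5% higher and 28% lower for day 6, and 36.2% higher and 27.3% lower for day 8. C3H14 on day 8 is among the 4 although dim on both days. On day 10, 3 were higher and 1 lower, against 36.4% and 27.6%. The share of higher calls over all probe sets depended on the scaling. With arrays centred on their medians it was 42.8%, not 55.2%, of calls on day 6, 40.03%, not 57.1%, on day 8 and 41.4%, not 56.9%, on day 10, and the median change of all probe sets moved by more than 0.1, to -0.02, -0.13, -0.17 and -0.16 on days 4, 6, 8 and 10. PHV, LHW, OPS and CLE44 kept their direction and their calls on days 4 to 10 under that scaling.

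**Figure D2:**
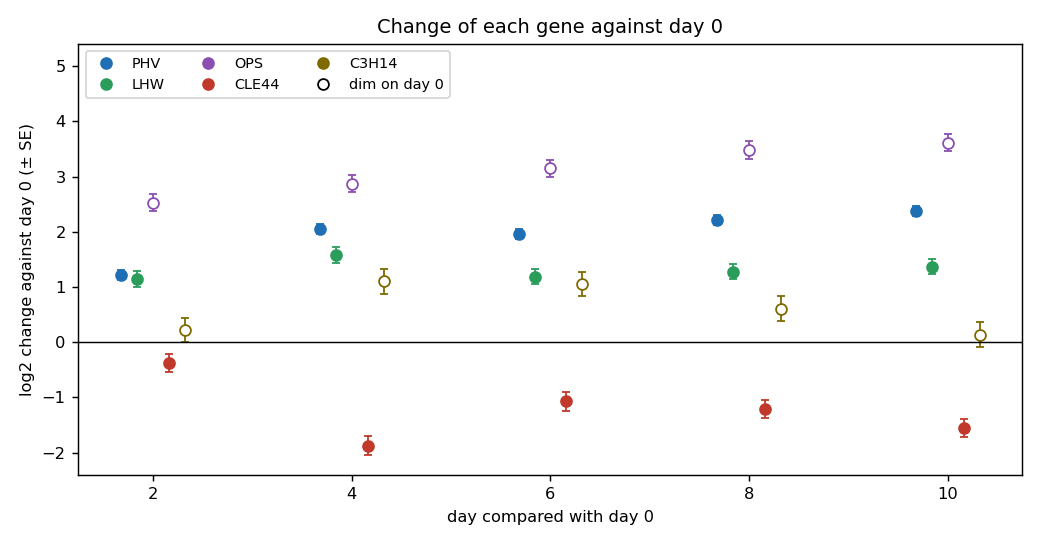
Log2 change of each gene on days 2 to 10 against day 0, with the standard error of the limma fit (2 arrays each); open circles mark genes dim on day 0, whose fitted change is not a measured fold. OPS, PHV and LHW lie above 0 on all 5 days, CLE44 lies below 0 from day 2 with its lowest value of -1.87 on day 4, and C3H14 returns towards 0 by day 10.

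Between neighbouring days, most calls after day 2 fell in the step to day 4. From day 2 to day 4, 3 were called higher (PHV, LHW and C3H14) and CLE44 was lower, against 22.3% and 22.5% of all probe sets. From day 4 to day 6 CLE44 was the 1 gene called, called higher as were 7.71% of probe sets, with 7.94% called lower. From day 6 to day 8 and from day 8 to day 10, limma called 0 of the 5 genes, against 5.59% and 0.0728% of all probe sets; at an unadjusted p under 0.05, 1 of the 5 passed in the first step (PHV, 0.25) and 0 in the second. With arrays centred on their medians, higher calls made up 38.4%, not 49.3%, of calls from day 4 to 6, 28.9%, not 53.3%, from day 6 to 8, and 50%, not 27.3%, of the few calls from day 8 to 10. Over all 15 pairs of days, PHV was called in 11, OPS in 10, CLE44 in 10, C3H14 in 7, of which 1 pair was dim on both days, and LHW in 6. Day 8 against day 2 and day 10 against day 2 called 49.9% and 50.1% of all probe sets.

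Days with the same labelled temperature gave the following changes. Among days at 27 C, PHV rose by 0.75 ± 0.09 on day 6 against day 2 and by 0.42 ± 0.09 on day 10 against day 6 (adjusted p = 0.00920; 10.7% of all probe sets), the second call being lost without replicate 1 of day 6 (0.31) or of day 10 (0.35). OPS rose by 0.62 ± 0.15 on day 6 against day 2 (adjusted p = 0.00509), and CLE44 fell by 0.70 ± 0.17 (adjusted p = 0.00428), where 25.6% of all probe sets were higher and 27.7% lower. C3H14 was at least 1.49-fold higher on day 6 than on day 2, when it was dim (adjusted p = 0.00763). Among days at 22 C, CLE44 on day 8 was 0.66 ± 0.17 above day 4 (adjusted p = 0.0159), a call lost without replicate 1 of day 4 (0.34) and without either replicate of day 8. OPS on day 8 was 0.61 ± 0.15 above day 4 (adjusted p = 0.0150), which was lost without replicate 1 of day 4 (0.48) or of day 8 (0.44) and with arrays centred on their medians (0.48). PHV and LHW were not called in that pair, with 0.16 and -0.30, where 12.2% of all probe sets were higher and 10.8% lower. LHW passed as lower there once arrays were centred on medians (-0.44, adjusted p = 0.0295) and with the replicate number as a block (adjusted p = 0.0405). The rise of PHV, LHW, OPS and C3H14 and the fall of CLE44 on day 4 against day 0 were therefore seen with no change of labelled temperature, and so were the changes of PHV, OPS, CLE44 and C3H14 on day 6 against day 2. The part of temperature in steps that cross it was not tested.

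**Figure D3:**
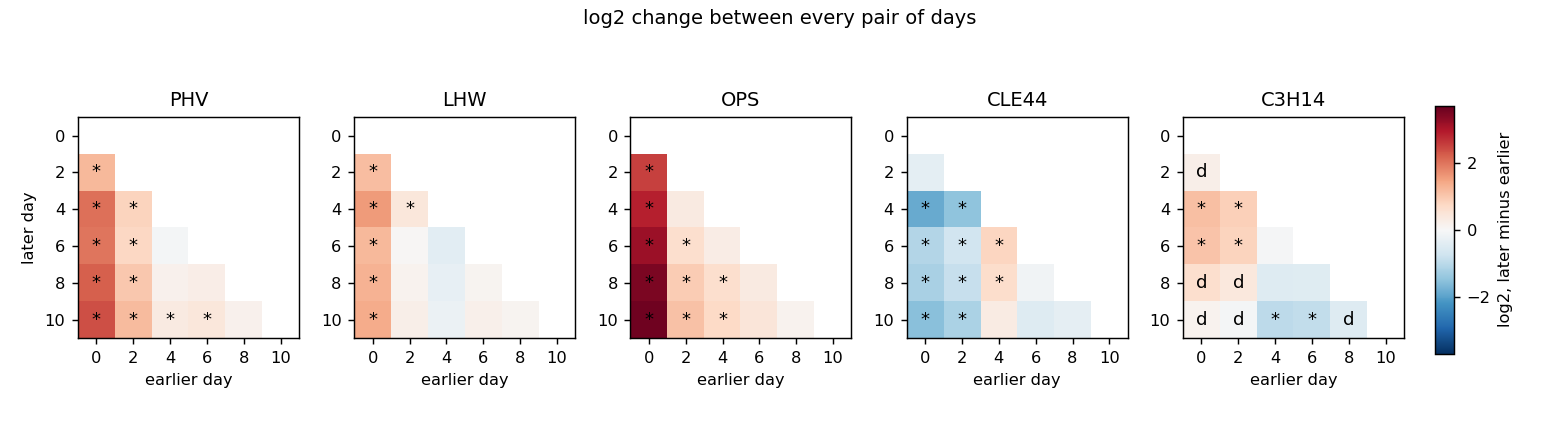
Log2 change of each gene between every pair of days (rows the later day, columns the earlier day, colour the log2 difference, later minus earlier); a star marks a limma adjusted p under 0.05 and d marks pairs dim on both days. LHW has its calls in the column of day 0 and for day 4 against day 2, while CLE44 has blue cells against days 0 and 2 and red starred cells for days 6 and 8 against day 4.

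Few other genes of the same pathways had a probe set of their own in the annotation. Besides the 5 genes, the lists held 14 other genes of HD-ZIP III and organ polarity and 32 other xylem and secondary wall regulators, and the annotation named 0 of each. It named 2 of 17 for the LHW and TMO5 module, 3 of 12 for TDIF signalling, 1 of 15 for phloem regulators and 1 of 11 for brassinosteroid synthesis and signalling. The partners TMO5 and PXY and the HD-ZIP III relatives of PHV are thus not analysed here.

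In TDIF signalling, 3 genes beside CLE44 were tested, and none was called lower than on day 0 on any later day. They were CLE41, whose product is processed to the same TDIF peptide, and PXL1 (AT1G08590) and PXL2 (AT4G28650), receptor kinases related to PXY. All 3 were called higher on day 2, 2 on day 4, 1 on day 6, 3 on day 8 and 2 on day 10, where between 34.5% and 36.4% of all probe sets were called higher. Between 25.8% and 28% of all probe sets were called lower on those days. With 3 genes, the lack of a lower call therefore does not set this list apart. The 3 genes had a median log2 change between 0.71 and 1.19, beside 0.05 to 0.10 for all probe sets. With 3 genes this median is the value of 1 gene, PXL2 on day 2 and PXL1 on day 4. PXL2 was dim on both days on day 2. PXL1 did not pass the moderated F test (adjusted p = 0.0810), was singled out after its values were seen because the count is small, and lost each of its calls without replicate 2 of day 0 (adjusted p between 0.122 and 0.204).

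CLE41 read 31.8 and 17.5 (day 0), 40.7 and 51.3 (day 2), 33.7 and 49.8 (day 4), 50.2 and 29.4 (day 6), 45.1 and 59.7 (day 8), and 56.0 and 51.7 (day 10). Its arrays scattered widely within a day, and those of day 6 overlapped with day 0. On day 10 CLE41 rose by 1.19 ± 0.32 against day 0 (limma adjusted p = 0.00705), where CLE44 fell by 1.56 ± 0.17. The 2 precursor genes of the same peptide were thus called in opposite directions on days 8 and 10, although the difference between their changes was not itself tested. The CLE41 call of day 10 was lost without replicate 2 of day 0 (0.76, adjusted p = 0.0724), and that of day 8 without replicate 2 of day 0 (0.71) or of day 8 (0.94). Its call of day 2 was lost without replicate 2 of day 0 (0.52) or of day 2 (0.79), and days 4 and 6 gained a call without replicate 1 of day 0 (1.23 and 1.14).

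PXL2 read 4.91 and 6.42 (day 0), 11.9 and 11.5 (day 2), 73.4 and 98.3 (day 4), 81.7 and 72.1 (day 6), 52.3 and 47.0 (day 8), and 35.2 and 37.1 (day 10). It was dim on days 0 and 2 and at least 4.67-fold higher on day 4 than on day 0 (limma adjusted p = 2.17e-08), on the day when CLE44 was lowest. By day 10 it had fallen by 1.23 ± 0.20 against day 4 (adjusted p = 0.00115).

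In the list for the LHW and TMO5 module, AT5G09460 passed and AT5G50010 was dim on every array. AT5G09460 read 16.1 and 20.7 (day 0), 56.3 and 48.1 (day 2), 317 and 419 (day 4), 313 and 383 (day 6), 295 and 243 (day 8), and 276 and 235 (day 10). It rose by 1.51 ± 0.18 on day 2 and by 4.32 ± 0.18 on day 4 against day 0 (limma adjusted p = 3.22e-09 for day 4), with 1 of the 2 day 0 arrays dim. From day 2 to day 4 AT5G09460 rose by a further 2.81 ± 0.18 (adjusted p = 5.21e-07), beside 0.43 for LHW. Whether the 2 rises are linked was not tested, and membership of the list does not say how a gene acts on LHW.

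Of the other listed phloem regulators the annotation named AT5G02460, which was dim on both arrays of days 0, 2 and 4 and on 1 array of day 6. It was at least 1.72-fold higher on day 8 than on day 0 (limma adjusted p = 5.43e-05) and at least 1.55-fold higher on day 10 than on day 0 (adjusted p = 8.70e-05). AT5G02460 was bright enough to be tested only through days 8 and 10, so these p-values are not independent of that choice. In the brassinosteroid list, BRL1, a receptor kinase related to the hormone's receptor BRI1 that is found in vascular tissue, averaged 220 on day 10, against 100.2 on day 0 (log2 1.13 ± 0.14, adjusted p = 2.02e-05). The calls of its rises on days 4 and 6 (0.44 and 0.51) were lost with arrays centred on their medians, and that of day 4 also when replicate 1 was left out of day 0 (0.40) or replicate 2 out of day 4 (0.19).

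**Figure D4:**
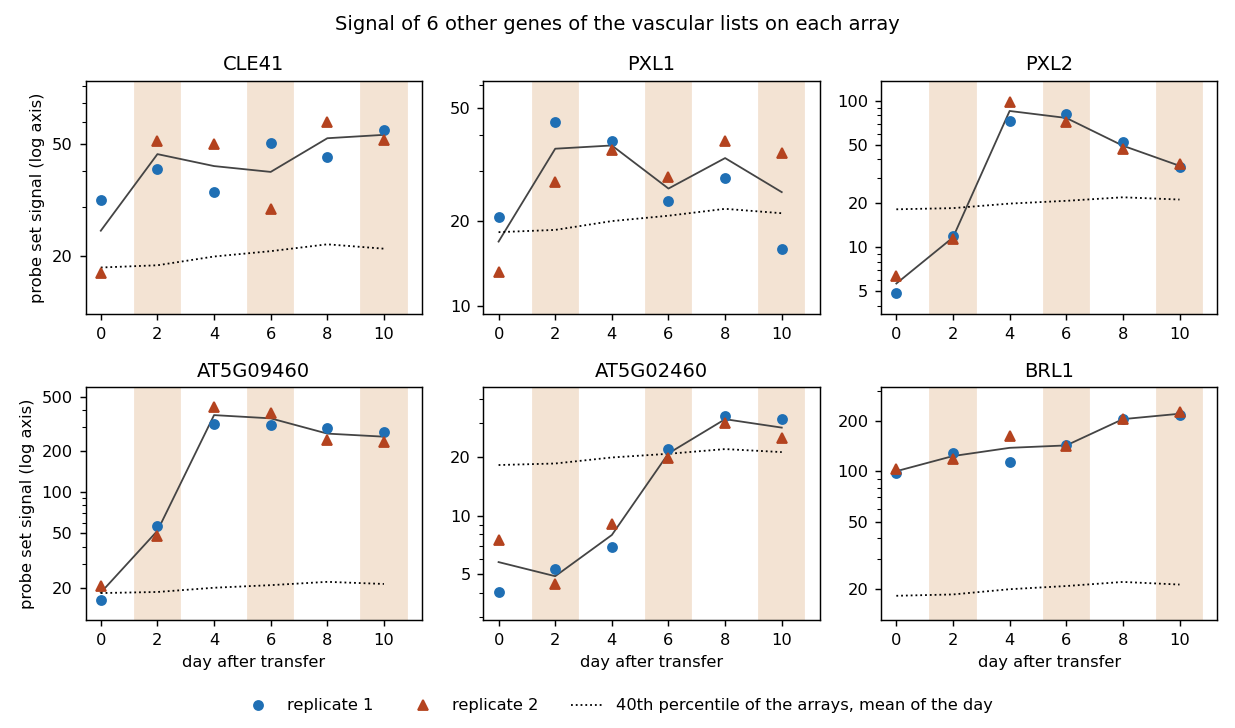
Probe set signal (log axis) against day for CLE41, PXL1, PXL2, AT5G09460, AT5G02460 and BRL1, drawn as for the 5 regulators, with shaded days labelled 27 C. PXL2 and AT5G09460 jump between days 2 and 4, AT5G02460 passes the dotted line from day 6, and the 2 arrays of CLE41 and PXL1 lie far apart on several days.

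Markers of tracheary elements were also read, and of the 21 listed the annotation named 7. The list was chosen with earlier results of these data known, so its calls are no independent check of the label. On day 2, 3 of the 7 were called higher than on day 0 and 1 lower, some of them dim on both days. Of all probe sets, 35.3% were higher and 26.1% lower on that day. All 7 were called higher than on day 0 on each of days 4, 6, 8 and 10, where 35.8%, 34.5%, 36.2% and 36.4% of all probe sets were higher, with a median log2 change of 6.53 on day 6, which includes dim day 0 arrays. AT5G66390 was dim on both arrays of day 4 as well. IRX10 (listed as GUT2), which makes the xylan of secondary walls, averaged 495 on day 6, against 51.8 on day 0 (log2 3.24 ± 0.16, limma adjusted p = 1.29e-08). By day 10 IRX10 was down to 138 (log2 -1.83 ± 0.16 against day 6, limma adjusted p = 5.70e-05). AT5G51890, IRX15-L, AT4G04460 and SCPL48 were also called lower on day 10 than on day 6, and IRX15 and AT5G66390 were not. Of all probe sets, 8.59% were lower in that pair. Of days 4, 6, 8 and 10, C3H14 was above dim on days 4 and 6 only. The annotation named none of the 7 phloem and 4 photosynthetic cell markers and 1 of 3 root epidermis markers, EXPA7, which was dim on every array. Whether cells of other types contributed to these signals was therefore not tested, and in such bulk cultures a change in the share of a cell type cannot be told apart from a change of RNA per cell.

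The 5 courses were also compared with those of other genes by Pearson's r of the log2 signal over the 12 arrays, among 3712 other genes whose day means spanned at least 1 on the log2 scale. These values describe likeness of course only, and the 12 arrays come from only 6 days. Courses like those of PHV, OPS and LHW were common: 487 genes had an r of at least 0.9 with PHV, 499 with OPS and 274 with LHW. Courses like that of CLE44 were matched at this level by 19 genes and that of C3H14 by 24. Scatter between arrays lowers r, C3H14 was dim on most arrays, and the CLE44 arrays of day 4 lay far apart. The counts therefore do not measure how rare a course is. Among the 5 genes, PHV and OPS were the most alike (r = 0.97), and PHV and CLE44 the most opposed (r = -0.86). Both day 0 arrays of OPS were dim, so its r values rest in part on signals that were not measured above that level.

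The gene most like PHV was AT5G06440 (r = 0.997), followed by the protein kinase gene WNK7 (0.991) and the cytochrome P450 gene CYP71B28 (0.989, dim on 4 arrays). ALDH2C4, an aldehyde dehydrogenase that makes ferulic and sinapic acids, ran most against PHV (r = -0.994) and was dim on 6 arrays, with day means of 681 on day 0, 77.1 on day 2, 20.1 on day 4, 18.2 on day 6, 13.0 on day 8 and 13.0 on day 10. For LHW the closest were AT1G69420 (0.977), AT5G24830 (0.976) and AT4G16360 (0.974), and AT4G36750 was lowest (-0.976). OPS was closest to AT2G04230 (0.994), to the transcriptional co-regulator gene SEU (SEUSS, 0.992) and to AT1G61660 (0.992, dim on 2 arrays), and most opposed to AT1G36060 (-0.993).

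CLE44 was followed most closely by the carboxypeptidase-like gene SCPL29 (r = 0.955), which also had its lowest mean on day 4 and a higher one on day 6. Its means were 360 on day 0, 236 on day 2, 123 on day 4, 179 on day 6, 159 on day 8 and 148 on day 10. Next were AT3G20300 (0.944) and AT2G16630 (0.922), dim on 7 and 6 arrays, and the F-box gene ETP2, which acts on the ethylene pathway protein EIN2, was lowest (-0.950).

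C3H14 was closest to AT1G75550 (0.958, dim on 6 arrays), AGO7 (0.956) and AT2G27130 (0.946). AGO7, which encodes an Argonaute protein of the trans-acting small RNA pathway, had day means of 18.8 on day 0, 30.5 on day 2, 57.2 on day 4, 72.0 on day 6, 38.0 on day 8 and 24.4 on day 10, with 1 array dim. Its highest mean fell on day 6 and that of C3H14 on day 4. Since C3H14 was dim on 8 of the 12 arrays, these r rest largely on values without a measured order. The glucosyltransferase gene UGT73B4 was lowest (-0.949, dim on 1 array) and had its lowest mean, 23.7, on day 4.

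**Figure D5:**
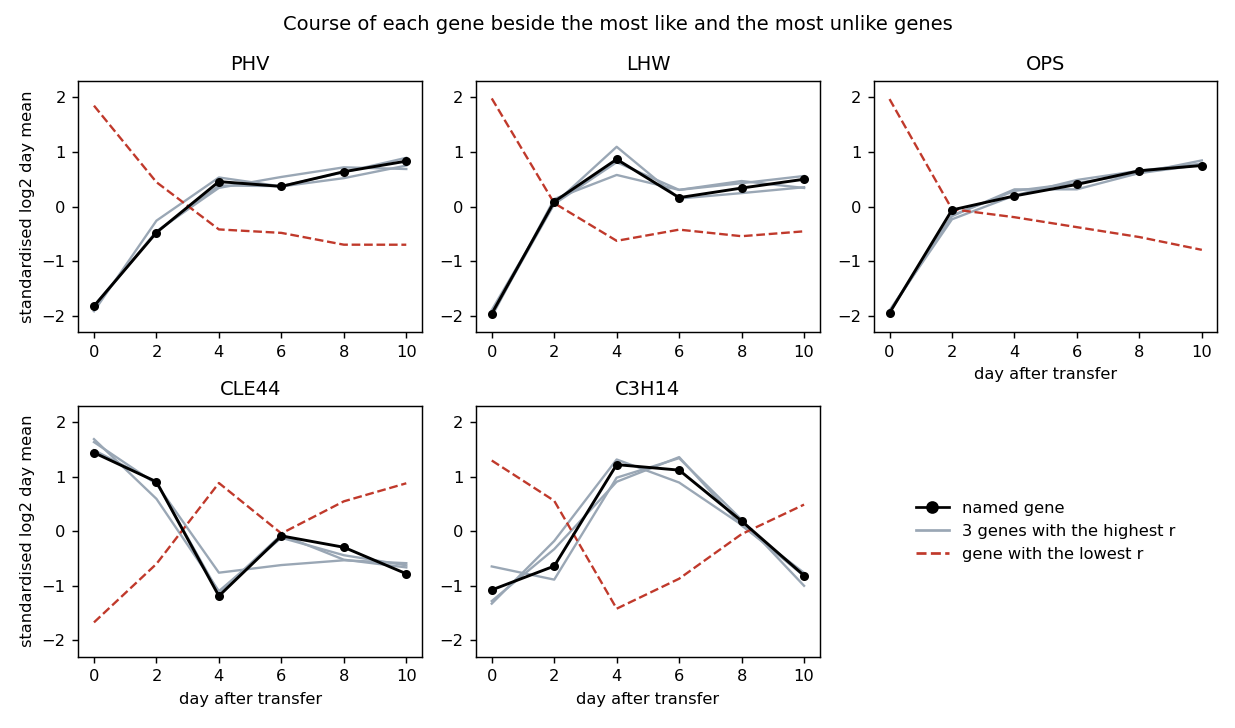
Log2 day means of each gene (black, circles), of the 3 genes with the highest r (grey) and of the gene with the lowest r (red, dashed), each standardised to mean 0 and SD 1 over the 6 days, against day after transfer. The grey lines lie close to the black line in each panel, since they were picked for it; the dip on day 4 with recovery on day 6 is seen for CLE44, and the peak on days 4 and 6 for C3H14.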

How the data were processed

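The authors deposited 1 signal intensity (linear scale) per probe set and array; per the submitters' processing notes the software was MAS5, of a version that the sources used here do not name. Trimmed mean signals were equal across arrays (100.01), so these had been scaled to a common level. Of 22810 probe sets, 64 controls were left out. The platform annotation gave 1 gene to 13513 of the other 22746, several to 503 and none to 8730. Of the 13513, 13484 matched a RefSeq locus (TAIR10.1, used for names only). No sequences are shown, as no sequence table was used.

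Testing was limited to the 15103 probe sets that, on at least 1 day, reached the 40th percentile of the array on both arrays; 7643 did not. The model for log2 intensity, in limma 3.58.1 (R 4.3.3), was linear (1 mean per day over all 12 arrays, eBayes with a variance trend, 6 residual degrees of freedom). All tests were 2-sided, and p-values were adjusted (Benjamini-Hochberg) over all probe sets of a comparison. A change was called where its adjusted p was under 0.05. The fit was checked on simulated data in which a small share of probe sets changed, on day 6 only. That check does not cover courses in which most probe sets change, as here. A probe set with both arrays of a day below the 40th percentile has only a bound there. The number of arrays limits the precision.

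The 5 genes and all lists were chosen with earlier results of these data known; after values were seen, the locus given for BUD2 in the LHW list, which was wrong, was replaced by one that the annotation does not name. Named besides them were up to 4 genes per list that passed the F test, and for each gene the 3 genes of highest r and the 1 of lowest. The combinations of calls given as shares of all probe sets were chosen after values were seen. Alternatives were each array left out in turn, a fit of only the 4 arrays compared, a replicate block, an untrended variance, a pseudocount of 8.50, low signals raised to the 40th percentile, the filter omitted or set at the 60th percentile, quantile normalization and centring of arrays on their medians. For pairs of days that are not neighbours and do not hold day 0, and for single list genes, the alternatives were chosen after seeing the data.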

Additional observations from a re-analysis of the deposited data

How the results depend on the processing

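Of 1560 changes of the 5 genes recomputed under alternatives, 1509 kept their side of the threshold, 28 lost their call and 23 gained one. No change that was called in the main fit or in the alternative reversed its direction. Among changes called in neither, some near 0 changed sign, such as PHV on day 6 against day 4 (from -0.19 to 0.03 over the alternatives). C3H14 was not tested under the 60th percentile filter. The count of genes called over the course was 5 of 5 with each array left out. The count for day 6 against day 4, which was 1, became 2 with arrays centred on their medians and 2 with the replicate block, LHW being added as lower each time, and ranged from 0 to 1 when arrays were left out. Counts for the 5 comparisons with day 0 and the other 3 steps stayed within 1.5 times, leaving out arrays giving 3 to 4 genes for day 2, 4 to 5 for day 8, and 3 to 4 between days 2 and 4. In the brassinosteroid list, the 1 gene called on day 4 and on day 6 became 0 with arrays centred on their medians. Over all probe sets, 12199 were called over the course and between 9707 and 12515 under the alternatives; 11 were called for day 10 against day 8, and between 0 and 148 under the alternatives. Same-numbered arrays were not treated as paired, since not every pair of days correlated above 0.1: their deviations correlated at 0.04 in the median over 15 pairs of days, with 4 above 0.1, although all 6 days leaned to their own number, which is a hint of pairing from the data. The block also called LHW lower on day 8 against day 4 (adjusted p = 0.0405). With 2 arrays a day, a day with 1 array left out was assumed to vary like the others. C3H14 lies close to the 40th percentile, so its folds are bounds and its dim days have no order.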

Other observations

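The rank of a gene within its array does not depend on how arrays were scaled. By this measure PHV lay at the mean percentile 96.1 of all probe sets on day 10, against 72.8 on day 0, and OPS at 79.9 on day 10, against 65.0 on day 2. LHW lay at 80.3 on day 4 and 76.9 on day 10, against 59.2 on day 0. CLE44 was at 70.6 on day 4 and 74.5 on day 10, against 92.0 on day 0, with 81.7 on day 6 between them. OPS on day 0 and C3H14 on days 0, 2, 8 and 10 were dim and are given no rank.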
